A study of Mus musculus with 12 samples.

Results

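The fragments described here are the DpnII fragments of mouse chromosome 11 that lie outside the α-globin domain and its immediate flanks but within about 1 Mb of them. A fragment was taken when its midpoint fell between 31.1 Mb and position 32000030 (the 5′ side) or between position 32299953 and 33.2 Mb (the 3′ side) in the mm9 assembly. These are the mid-range fragments, and no measured value entered the rule. They number 3996 among the 120011 fragments of chromosome 11 and the 508938 fragments of all chromosomes that are listed in at least 1 library, with 2066 on the 5′ side and 1930 on the 3′ side. Between the sides lie 686 listed fragments, called local here, among them those next to the viewpoints. A library listed between 1287 and 3632 of the mid-range fragments.

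Contacts were measured by NG Capture-C, a method in which crosslinked chromatin is cut with DpnII and religated, and the ligation products of chosen fragments, the viewpoints, are enriched with probes and sequenced. A reporter count, called an interaction here, is a read that joins a viewpoint to another fragment. All cells were CD71+ erythroid cells, selected on magnetic columns at day 7 from embryoid bodies of E14TG2a.IV mouse embryonic stem cells (strain 129/Ola). WT cells carry the unmodified locus. D3839 cells are homozygous for the loss of the CTCF sites at HS-38 and HS-39.5, the boundary on the 5′ side of the α-globin cluster. Each genotype has 3 libraries in each of 2 captures: the R1 capture with the enhancer viewpoints R1 and R2, and the promoter capture with the viewpoints Il9r, Snrnp25, Rhbdf1, Mpg and Nprl3. The 12 libraries give 42 values of each quantity, 1 for each viewpoint and library. The titles give the same library names in both captures. The names of D3839 libraries 2 and 3, CTCFDKO_A81 and CTCFDKO_A82, share a stem that library 1, CTCFDKO_A3, does not have, and the labels do not tie a library to a clone. The legend for these captures speaks of 2 clones made independently, so at least 2 of the 3 D3839 libraries share a clone if both clones are D3839. The study's methods state 3 separate differentiations for these captures, and the labels do not tie a library to one of them, so the p-values measure the spread between the libraries.

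Chromosomes fold into topologically associating domains, stretches within which fragments meet each other more often than fragments beyond the edge. CTCF, a zinc finger protein, binds many of these edges, where it halts the cohesin complex as that complex extrudes loops of chromatin. The α-globin enhancers R1 and R2 lie in introns of Nprl3, which encodes a subunit of a complex that restrains mTORC1, and in erythroid cells they contact the α-globin genes within a small domain. The other promoter viewpoints belong to neighbours on the 5′ side: Il9r encodes the interleukin-9 receptor, Snrnp25 a protein of the minor spliceosome, Rhbdf1 an inactive rhomboid protein and Mpg a DNA repair glycosylase. Mid-range contacts are the contacts that leave this neighbourhood without leaving its wider surroundings.

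The sequences that set the genotypes apart are the CTCF sites themselves, shown because every comparison of D3839 with WT rests on them. The study's methods give them, with the restriction site that took the place of the CTCF consensus sequences, as follows.
HS-38: TACCCTCTGGTGGC
HS-39.5: CTGGCCACTGGGGG
ScaI: AGTACT
A sequence of each mid-range fragment would need the mm9 genome, which was not used here. The fragments and viewpoints are set by DpnII, which cuts at GATC on either strand, a palindrome that overlaps no other motif searched here. Of 32851 mouse promoters in RefSeq on GRCm38.p6, each from 250 bases before to 50 after the gene's start, 48.0% hold a GATC. The promoters of 4 of the 5 genes captured at their promoters were matched in that table, and those of Il9r and Mpg each hold 1 GATC, whereas those of Snrnp25 and Nprl3 hold none in this window. The promoters of Il9r and Mpg are printed because the Il9r viewpoint had the highest mid-range share in WT and the Mpg viewpoint the largest fall in D3839. The capitals mark the DpnII site, Il9r lies on the minus strand at 32200230-32200529 and Mpg on the plus strand at 32226255-32226554 of chromosome 11 in GRCm38.p6.
Il9r: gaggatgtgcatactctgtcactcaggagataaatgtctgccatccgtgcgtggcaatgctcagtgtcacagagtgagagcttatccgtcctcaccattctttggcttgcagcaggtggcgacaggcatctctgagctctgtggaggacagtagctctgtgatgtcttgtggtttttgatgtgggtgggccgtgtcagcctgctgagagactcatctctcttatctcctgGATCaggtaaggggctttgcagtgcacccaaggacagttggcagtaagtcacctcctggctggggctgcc
Mpg: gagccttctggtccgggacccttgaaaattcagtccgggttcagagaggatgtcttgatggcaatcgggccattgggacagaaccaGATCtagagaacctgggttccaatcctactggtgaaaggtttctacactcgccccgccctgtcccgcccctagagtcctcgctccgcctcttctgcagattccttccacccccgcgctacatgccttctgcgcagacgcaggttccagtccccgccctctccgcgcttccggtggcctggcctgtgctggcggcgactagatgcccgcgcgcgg

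The viewpoints lie at 32144385-32146902 (R1), 32150164-32152574 (R2), 32098986-32101248 (Il9r), 32104554-32106268 (Snrnp25), 32121404-32123501 (Rhbdf1), 32126077-32126672 (Mpg) and 32166872-32168681 (Nprl3) on chromosome 11 of mm9. The centres of the viewpoints are thus 100.1 to 167.7 kb from the inner edge of the 5′ side and 132.2 to 199.8 kb from that of the 3′ side. Because these distances are unequal, the ratio of the sides is also given for fragments 250 to 850 kb from the viewpoint on both sides. A viewpoint gave 4999 to 69758 interactions with chromosome 11 in a library, and 488 to 6334 of them fell on 1 mid-range side. At this depth the 95% Wilson interval of a side's share reached at most 0.899 percentage points above the share and 0.839 below it, and a count of 0 allowed a share of up to 0.0043 to 0.060%. These limits cover counting error only, since the table gives no molecular identifiers.

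Library 1 of D3839 stood apart from libraries 2 and 3 over the 72 mid-range bins of 25 kb. Chi-square per degree of freedom was 16.3 and 16.6 between library 1 and the others in the promoter capture and 1.35 between libraries 2 and 3. In the R1 capture the values were 3.79, 4.03 and 1.20. In the R1 capture libraries 2 and 3 agree within sampling noise over these bins (chi-square p = 0.117), but over the bins of all chromosome 11 and in the share of interactions on that chromosome they differed beyond it, so they were kept as separate libraries. WT libraries differed from each other by 3.46 to 6.92 in the R1 capture, where WT library 1 gave 6.92 and 5.24 against the others, and by 1.63 to 2.06 in the promoter capture. Differences of the genotypes in the shares, the ratio of the sides and the slopes are therefore also given without D3839 library 1, which leaves 2 libraries against 3 and a smallest exact p of 0.2. Library 1 was singled out by its values in these same bins, and libraries 2 and 3 may share a clone. Non-overlap without library 1 is therefore a description and no test.

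The 12 libraries held 151122 mid-range interactions, 86890 on the 5′ side and 64232 on the 3′ side. Listed fragments covered 98.6% of the bases of the 5′ side and 98.8% of the 3′ side, and 91.0% of the fragments were listed by both captures. Of the entries of a fragment for a viewpoint in a library, 47.7% were a single interaction. The tenth of the fragments with the most interactions held 37.8% of them. A single fragment therefore rarely carries enough interactions for a comparison of genotypes, and the fragments were summed in 25 kb bins numbered outward from the inner edge of each side. The share of a bin or side is its percentage of the interactions that the viewpoint made with chromosome 11.

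Mid-range contacts did not fall evenly with distance. On the 5′ side, with the viewpoints of a capture pooled, the bins next to the domain were low and the contacts rose outward to a broad maximum in bins 9 to 12, at 31700031-31800030. The highest 5′ bin lay among these in 6 of 6 libraries at 6 viewpoints and in 4 of 6 at Il9r, where bin 18 was the highest in the WT mean (0.873%, beside 0.678% in bin 11). The innermost bin (31975031-32000030) held 0.0586 to 0.237% of the interactions of a library of the R1 capture, viewpoints pooled, with a median of 0.111%. The median in the promoter capture was 0.298%. Bin 11 (31725031-31750030) held 0.662 to 0.969% over the 12 libraries. Bin 11 exceeded the innermost bin in 12 of 12 libraries, with folds from 2.36 to 12.6 and a median of 4.18, although it lies 250 kb farther out.

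**Figure D1:**
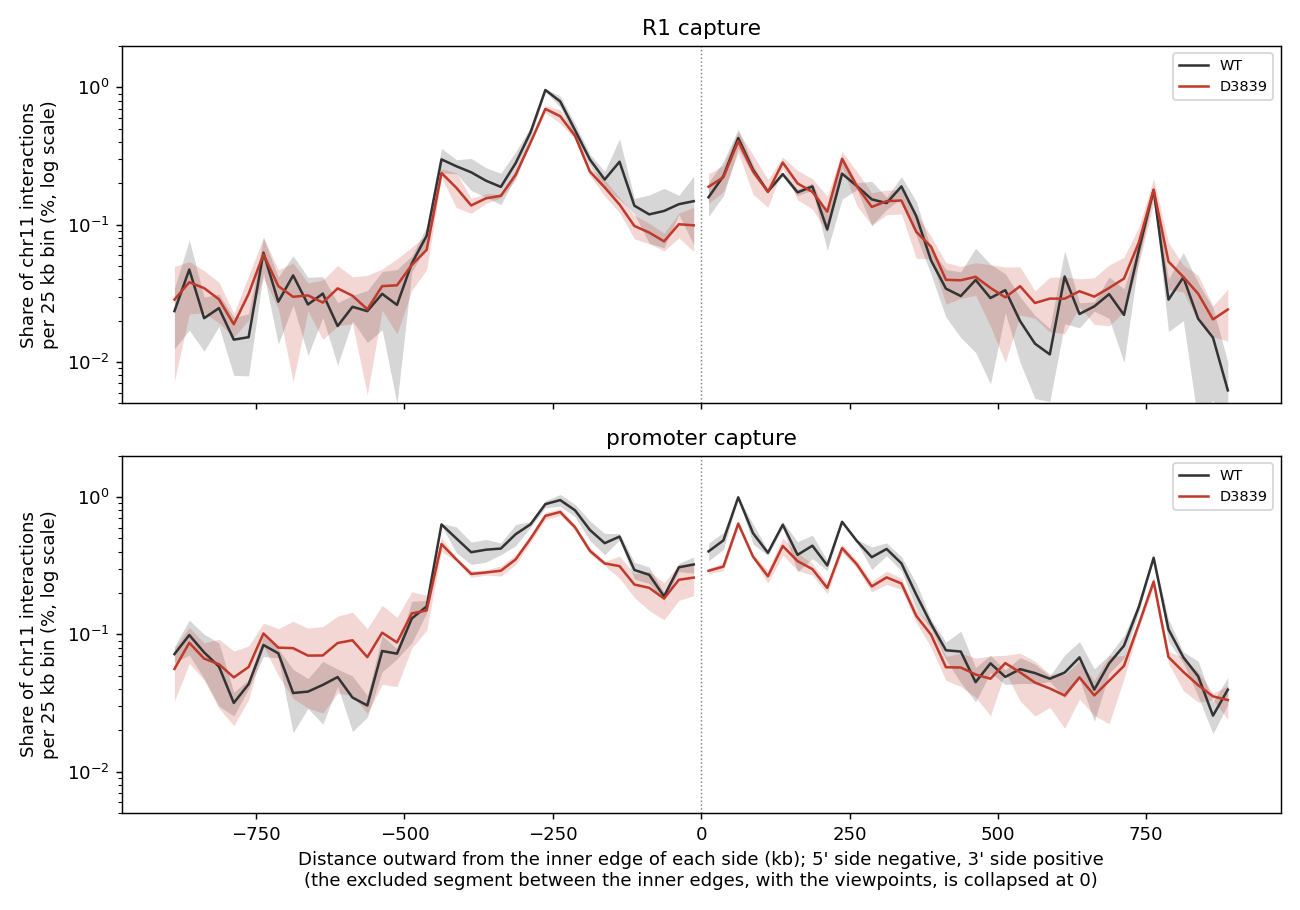
Share of chromosome 11 interactions per 25 kb bin (%, log scale) against the distance outward from the inner edge of each side (kb), viewpoints of a capture pooled; lines are means of 3 libraries and bands the SD, cut at the lower limit of the axis. The 5′ maximum (bins 9 to 12), the step after bin 18, the 3′ decline between bins 14 and 17 and the isolated 3′ peak (bin 31) stand at the same bins in both captures and both genotypes.

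The 5′ side then ended in a step. Bin 18 (31550031-31575030) held 0.219 to 0.642% of interactions in the 12 libraries, and the next bin outward, bin 19 (31525031-31550030), held 0.045 to 0.178%. The fold between them was at least 2.74 and at most 4.82, with a median of 3.62, and bin 18 was the higher in all 42 viewpoint and library values. Bins 1 to 18 held 73.1 to 92.3% of the 5′ interactions of a viewpoint in a library, with a median of 89.2%, so that the outer 18 of the 36 bins held a median of 10.8%. The outermost bin (31.1 Mb to 31125030) held a median of 0.0239% in the R1 capture and 0.0678% in the promoter capture. Stretches of bins were chosen after their values were seen and carry no test.

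The 3′ side had several maxima and a softer edge. The innermost bin (32299953-32324952) had a median share of 0.179% in the R1 capture and 0.327% in the promoter capture, and bin 3 (32349953-32374952) held 0.325 to 1.01% over the 12 libraries. Contacts fell between bins 14 and 17, by a fold of 2.97 to 11.9 with a median of 4.21, and bin 14 was the higher in 41 of 42 viewpoint and library values. Bins 1 to 15 (32299953-32674952) held 71.4 to 85.8% of a viewpoint's 3′ interactions, with a median of 79.1%. Beyond them the share of a bin stayed low, with the exception of an isolated peak in bin 31 (33049953-33074952). The outermost bin (33174953 to 33.2 Mb) had a median of 0.0116% in the R1 capture and 0.0365% in the promoter capture.

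The bins that stood above their surroundings were ranked by the local excess, the log2 of a bin's share over the geometric mean of the 2 bins on each side, averaged over the 12 libraries. The 3 leading bins on the 5′ side were bin 18 with an excess of 1.26, bin 30 (31250031-31275030) with 1.13 and bin 11 with 0.65. On the 3′ side they were bin 31 with 1.98, bin 3 with 1.08 and bin 10 (32524953-32549952) with 0.77. All 6 were above 0 in 12 of 12 libraries, and 4 of them in 42 of 42 viewpoint and library values, with bin 30 in 41 and bin 11 in 40. The same libraries ranked the bins, so these counts are no test. Bins outside the list were also above 0 in 12 of 12 libraries, namely 5′ bins 10 and 17 and 3′ bins 6, 11, 14 and 30. No bin owed its excess to a single fragment, since the leading fragment held 3.36 to 8.07% of the interactions of its bin. With each fragment counted once per library and viewpoint, a choice made after seeing the data, the excess fell to 0.64, 0.80 and 0.27 on the 5′ side and 1.38, 0.61 and 0.36 on the 3′ side and stayed above 0 in 12 of 12 libraries for each.

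The isolated 3′ peak was present in every library. In the R1 capture bin 31 held 0.177, 0.164 and 0.194% of interactions in WT and 0.141, 0.215 and 0.183% in D3839. In the promoter capture it held 0.352, 0.362 and 0.370% in WT and 0.265, 0.223 and 0.239% in D3839. The genotypes overlapped in the R1 capture, whereas in the promoter capture every D3839 library was below every WT library. In the promoter capture the WT libraries gave bin 31 a local excess of 1.87 ± 0.14 and the D3839 libraries one of 1.78 ± 0.24 (SD, n = 3 each), so that the bin fell together with its neighbours. Its share was at least 2.44 times that of bin 32 in every library.

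Bin 11 was the highest 5′ bin of the R1 capture, and in the promoter capture bin 10 was higher, with means of 0.95% in WT and 0.78% in D3839. In bin 11 WT libraries gave 0.968, 0.969 and 0.930% in the R1 capture and 0.895, 0.935 and 0.835% in the promoter capture. D3839 libraries gave 0.741, 0.662 and 0.685% in the R1 capture and 0.779, 0.719 and 0.690% in the promoter capture. In each capture every D3839 library was below every WT library. Bin 3 of the 3′ side behaved otherwise, with 0.43 ± 0.07% in WT and 0.41 ± 0.07% in D3839 in the R1 capture but 1.00 ± 0.01% and 0.64 ± 0.04% in the promoter capture (SD, n = 3 each). Over 64 bins the profile of local excess correlated between the captures with Pearson r = 0.88 (Spearman 0.80), and between the genotypes with r = 0.71 in the R1 capture and r = 0.89 in the promoter capture. Its correlation with the number of listed fragments of a bin, taken relative to the same neighbours, was r = 0.02. These are descriptions across bins, which share libraries and depth and are no replicates.

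The fragments with the most interactions lay inside these bins. In the R1 capture they were 31735278-31736367 with 176 interactions over 6 libraries, 31742783-31743657 with 162 and 31744153-31744757 with 143, all in bin 11 of the 5′ side. In the promoter capture they were 32354549-32355949 with 193 and 32353731-32354548 with 188, which adjoin each other in bin 3 of the 3′ side, and 31570730-31572192 with 174 in bin 18 of the 5′ side. Each was also seen in the other capture, with 110 to 139 interactions. The fragment 31735278-31736367 gave 23, 34 and 37 interactions in the WT libraries and 26, 30 and 26 in the D3839 libraries of the R1 capture. No library of either genotype lacked it.

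Genes can be placed relative to these stretches only by order, because the annotation used here is of GRCm38.p6. The first genes outward from Il9r are Nsg2, 4930524B15Rik, Cpeb4, Bod1 and Stc2. Cpeb4 encodes a protein that binds mRNA to control translation and Stc2 a secreted glycoprotein. The first genes outward from the α-globin genes are Sh3pxd2b, Ubtd2, Efcab9, Stk10, Fbxw11, Smim23, Fgf18 and Npm1. Fbxw11 encodes a subunit of a ubiquitin ligase, Fgf18 a growth factor and Npm1 nucleophosmin, an abundant nucleolar protein. Which of these genes lie within the window or in a named bin was not tested.

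Every viewpoint contacted the 5′ side more than the 3′ side in every library. The 5′ side held the larger share in 42 of 42 viewpoint and library values. The mean log2 ratio of 5′ to 3′ interactions over 6 libraries was 0.53 at R1, 0.55 at R2, 0.26 at Il9r, 0.30 at Snrnp25, 0.36 at Rhbdf1, 0.49 at Mpg and 0.39 at Nprl3. Each had an exact two-sided sign-flip permutation p of 0.031, the smallest that 6 libraries can give, and 0.031 after Benjamini-Hochberg adjustment over the 7 viewpoints. At 250 to 850 kb on both sides the ratio was 1.01 at R1, 1.06 at R2, 0.41 at Snrnp25, 0.65 at Rhbdf1, 0.75 at Mpg and 0.98 at Nprl3, each in 6 of 6 libraries with an adjusted exact permutation p of 0.0365. At Il9r, the viewpoint nearest the 5′ side, it was 0.16, above 0 in 5 of 6 libraries with an exact permutation p of 0.0625. The ratio is independent of the total that shares are taken of, since both sides come from the same viewpoint and library.

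**Figure D2:**
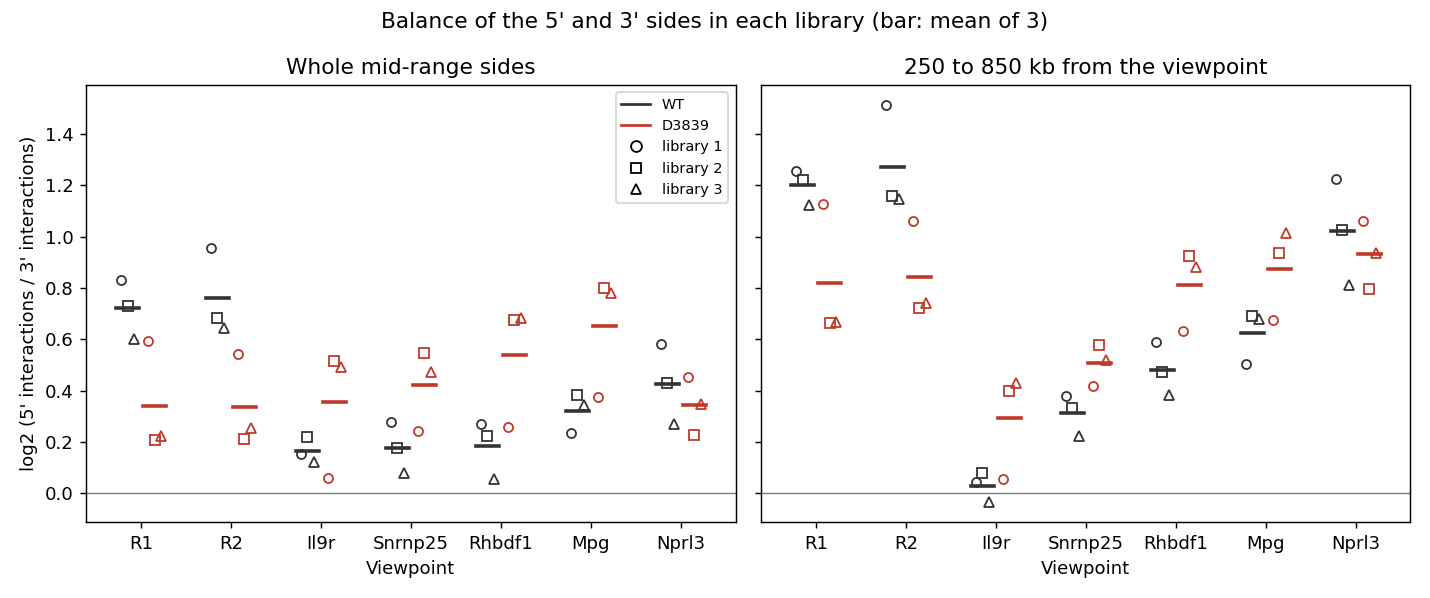
Log2 ratio of 5′ to 3′ interactions for each viewpoint, for the whole mid-range sides (left) and at 250 to 850 kb from the viewpoint (right); points are libraries and bars means of 3. All values on the left are above 0; R1 and R2 are lower in D3839 and Il9r, Snrnp25, Rhbdf1 and Mpg are higher in D3839 libraries 2 and 3, while library 1 lies near the WT values.

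The balance of the sides moved towards the 3′ side at the enhancer viewpoints in D3839. At R1 the log2 ratio was 0.83, 0.73 and 0.60 in WT and 0.59, 0.21 and 0.22 in D3839, a difference of -0.38 ± 0.14 (SE). At R2 it was 0.96, 0.68 and 0.64 in WT and 0.54, 0.21 and 0.25 in D3839, a difference of -0.43 ± 0.14. Neither pair of genotypes overlapped, and each exact two-sided permutation p was 0.1, the smallest that 3 against 3 libraries allow (adjusted 0.28). At 250 to 850 kb the R1 libraries overlapped (-0.38, exact permutation p = 0.2) and the R2 libraries did not (-0.43, p = 0.1). At that distance the difference was 0.19 at Snrnp25 and 0.33 at Rhbdf1, without overlap (exact permutation p = 0.1 each), and 0.27 at Il9r, 0.25 at Mpg and -0.09 at Nprl3, with overlap (exact permutation p = 0.2, 0.3 and 0.6). At the R1 viewpoint a listed 5′ fragment had 3.07, 4.73 and 3.76 interactions in WT and 2.30, 2.84 and 2.81 in D3839. In the R1 capture pairs of libraries shared 26.9 to 27.7% of listed entries in WT and 12.5 to 15.1% in D3839. The treatment of duplicate reads is not given, and its part in the balance of the sides was not tested.

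At the 4 promoters on the 5′ side of the enhancers the genotypes overlapped, and the ratio was higher in 2 of 3 D3839 libraries and not in the third. At Rhbdf1 it was 0.27, 0.22 and 0.05 in WT and 0.26, 0.68 and 0.68 in D3839, and at Mpg 0.24, 0.38 and 0.34 in WT and 0.37, 0.80 and 0.78 in D3839. D3839 library 1 lay within the WT range at both. The mean differences were 0.19 at Il9r (exact permutation p = 0.4), 0.24 at Snrnp25, 0.36 at Rhbdf1 and 0.33 at Mpg (p = 0.2 each), with overlapping genotypes at all 4. Without D3839 library 1 they were 0.34, 0.33, 0.50 and 0.47, and the genotypes no longer overlapped (exact permutation p = 0.2, the smallest possible). This separation follows an omission chosen by the values. At Nprl3 the difference was -0.08 (exact permutation p = 0.5), in the direction of the enhancers, and -0.14 without library 1. At R1 and R2 it was -0.51 and -0.53 without that library, and -0.33 at each without WT library 1, without overlap, so the direction at the enhancers rested on neither library.

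The amount of mid-range contact was lowest at the enhancers in WT, and at the enhancers and Nprl3 in D3839. In WT libraries mid-range fragments took 24.0 ± 1.5% of the chromosome 11 interactions of Il9r, 21.1 ± 0.8% at Snrnp25, 19.3 ± 0.8% at Mpg, 18.6 ± 1.0% at Rhbdf1, 12.7 ± 1.4% at Nprl3, 11.0 ± 0.9% at R1 and 9.28 ± 0.79% at R2 (SD, n = 3 each). In D3839 they were 19.6 ± 0.3% at Il9r, 17.6 ± 0.6% at Snrnp25, 13.2 ± 0.6% at Rhbdf1, 12.7 ± 1.3% at Mpg, 9.53 ± 1.42% at R1, 8.55 ± 1.32% at Nprl3 and 8.40 ± 1.47% at R2. In both genotypes the mean was highest at Il9r, the viewpoint farthest to the 5′ side. Nprl3, whose promoter viewpoint lies on the 3′ side of both enhancers, was above them in the WT mean and below R1 in the D3839 mean. The libraries of Mpg and Rhbdf1 overlapped in both genotypes, as did those of Nprl3 and R1 and, in D3839, those of R1, Nprl3 and R2.

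**Figure D3:**
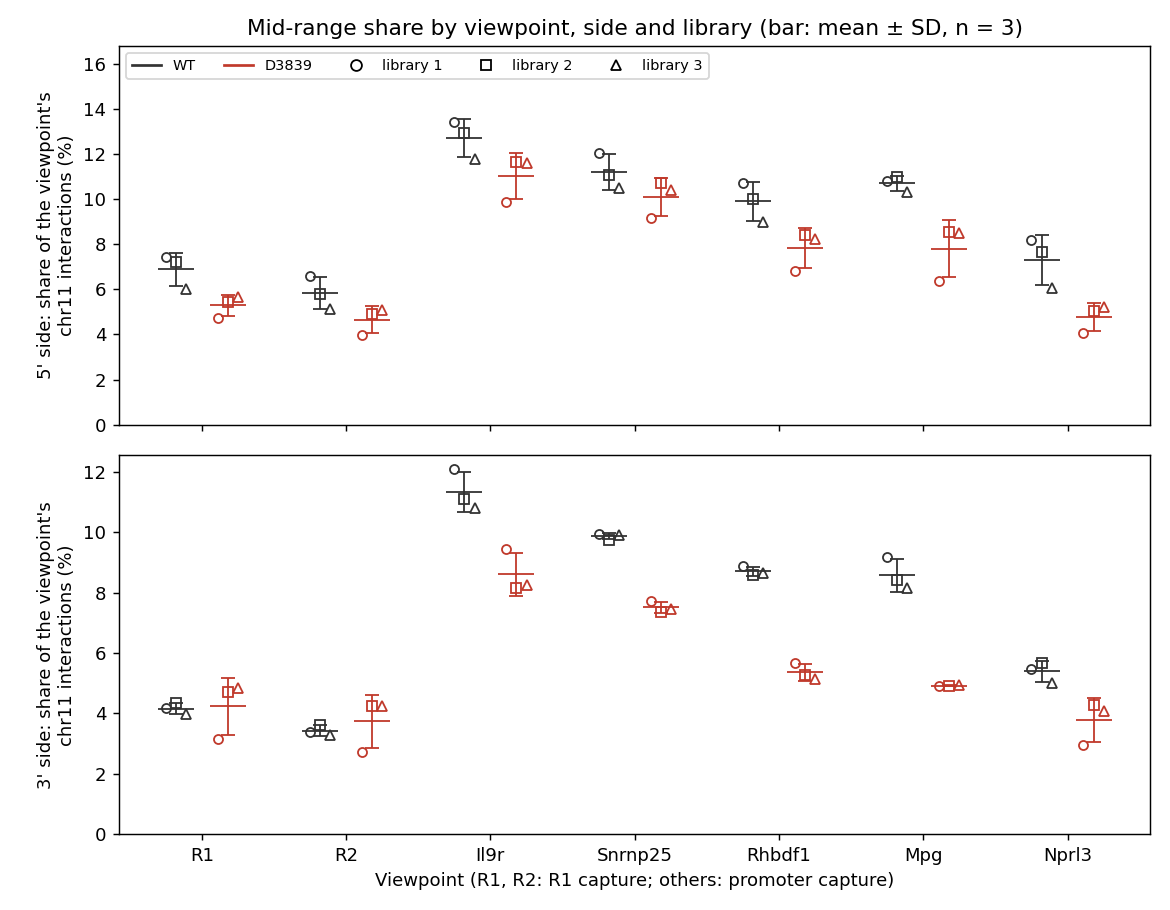
Share of each viewpoint's chromosome 11 interactions that fell on the 5′ side (top) and the 3′ side (bottom), in percent; points are libraries, bars mean ± SD (n = 3). R1, R2 and Nprl3 are the lowest on both sides; on the 3′ side Rhbdf1 and Mpg have no overlap of the genotypes and R1 and R2 overlap.

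Enhancer and promoter viewpoints were compared within library names. The mean log2 share of R1 and R2 minus that of the 5 promoters was -0.76 ± 0.17 (SD) for the whole mid-range, below 0 in 6 of 6 library names, with an exact two-sided sign-flip permutation p of 0.031 (0.031 adjusted over 3 quantities). It was -0.92 without Nprl3 and -0.28 with each fragment counted once, each below 0 in the mean with the same permutation p. The class of a viewpoint cannot be told apart from the capture it belongs to, because all enhancer viewpoints are in the R1 capture and all promoter viewpoints in the promoter capture. For comparison, the same difference was 0.42 for local fragments and -0.52 for fragments of chromosome 11 beyond the window of 31.1 to 33.2 Mb, so the enhancers' lower share was shared by the rest of the chromosome.

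The sides parted company in this comparison. On the 5′ side the enhancers were lower than the promoters by nearly the same amount in every library name, with -0.64, -0.68 and -0.74 in WT and -0.67, -0.72 and -0.66 in D3839. The genotypes differed by 0.0017 (exact permutation p = 1). In 1 alternative setting the 5′ difference of enhancers and promoters no longer had a sign-flip permutation p under 0.05. Those of the whole mid-range and the 3′ side kept it in every setting that used all libraries. On the 3′ side the values were -1.23, -1.10 and -1.19 in WT and -0.96, -0.38 and -0.34 in D3839, a difference of 0.61 without overlap (exact permutation p = 0.1). The contrast of the sides, log2 of 5′ over 3′ at enhancers minus promoters, went from 0.49 ± 0.09 in WT to -0.12 ± 0.36 in D3839 (SD, n = 3), a difference of -0.61 without overlap (exact permutation p = 0.1). Its D3839 values were 0.29, -0.34 and -0.32, so library 1 had the WT sign and the others the opposite one. Without library 1 the 3′ difference was 0.81 and that of the contrast -0.82. The contrast differed by -0.60 at 250 to 850 kb, and -0.36 with each fragment counted once.

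In D3839 the mid-range share was lower than in WT at every viewpoint, and beyond the libraries' spread at the 5 promoters. At Il9r it was 25.5, 24.0 and 22.6% in WT and 19.3, 19.8 and 19.8% in D3839. At Rhbdf1 it was 19.6, 18.6 and 17.7% in WT and 12.5, 13.7 and 13.4% in D3839. At Mpg it was 20.0, 19.4 and 18.5% in WT and 11.2, 13.5 and 13.4% in D3839. At these 3 viewpoints each D3839 library was below each WT library.

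The Snrnp25 viewpoint gave 22.0, 20.8 and 20.4% in WT and 16.9, 18.1 and 17.9% in D3839. The Nprl3 viewpoint gave 13.7, 13.3 and 11.1% in WT and 7.02, 9.33 and 9.29% in D3839. Neither pair of genotypes overlapped. R1 gave 11.6, 11.6 and 10.0% in WT and 7.90, 10.1 and 10.5% in D3839, and R2 gave 9.97, 9.44 and 8.42% in WT and 6.70, 9.18 and 9.32% in D3839. At R1 and R2 the genotypes overlapped.

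The log2 differences were -0.61 ± 0.09 (SE) at Mpg, -0.58 ± 0.17 at Nprl3, -0.50 ± 0.06 at Rhbdf1, -0.29 ± 0.05 at Il9r and -0.26 ± 0.04 at Snrnp25, each with an exact two-sided permutation p of 0.1 (adjusted 0.14). They were -0.22 at R1 and -0.16 at R2, with exact permutation p-values of 0.3 and 0.5. Without D3839 library 1 the values were -0.52, -0.44, -0.46, -0.28 and -0.23 at these promoters, again without overlap, and -0.09 and -0.0013 at R1 and R2. With each fragment counted once the differences at R1 and R2 were -0.47 and -0.41, without overlap. Counting once also moves with the number of fragments a library lists. In the R1 capture that was 1287, 1871 and 1876 mid-range fragments in WT and 1915, 2862 and 2879 in D3839. The part of this in the once-counted values was not tested.

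These falls depend on the total that shares are taken of. The share of all interactions that stayed on chromosome 11 was higher in D3839 at every viewpoint, by 0.19 to 0.49 on the log2 scale, without overlap. With all interactions as the total the mid-range difference was 0.15 at Il9r and 0.04 at R2, the opposite direction, and between -0.19 and -0.02 at the others, with overlapping genotypes at all 7. At the 5 promoters the local share rose, by 0.24 to 0.42, and the share beyond the window fell, by 0.20 to 0.45 on the log2 scale, without overlap in either, so the mid-range fell together with the more distant chromosome. Set against the interactions beyond the window, which needs no total, mid-range contacts were lower in D3839 without overlap at R1 (-0.29), R2 (-0.20) and Mpg (-0.29), each with an exact permutation p of 0.1. In the same measure the genotypes overlapped at Snrnp25 (-0.05), Rhbdf1 (-0.09) and Nprl3 (-0.13), and Il9r was 0.07. Without D3839 library 1 the values were -0.34 at R1, -0.23 at R2 and -0.34 at Mpg, and -0.11, -0.20 and -0.15 at Snrnp25, Rhbdf1 and Nprl3 no longer overlapped (exact permutation p = 0.2 each). That reference was added after the data were seen.

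On the 3′ side the share was lower in D3839 without overlap at the 5 promoters and overlapped at the enhancers. The 3′ share at Mpg was 9.19, 8.42 and 8.14% in WT and 4.90, 4.92 and 4.94% in D3839, a log2 difference of -0.80 ± 0.05 (SE). At Rhbdf1 it was 8.88, 8.57 and 8.67% in WT and 5.68, 5.27 and 5.13% in D3839, a difference of -0.70 ± 0.05. The D3839 libraries lay close together there, and without library 1 the differences were -0.80 and -0.74. The 3′ differences were -0.40 at Il9r, -0.39 at Snrnp25 and -0.53 at Nprl3 (exact permutation p = 0.1 each), and -0.47, -0.41 and -0.36 without library 1. At R1 the 3′ share was 4.17, 4.35 and 3.97% in WT and 3.15, 4.71 and 4.86% in D3839, and at R2 3.39, 3.62 and 3.29% in WT and 2.73, 4.25 and 4.25% in D3839.

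The mean log2 differences of the 3′ share at the enhancers were 0.00068 at R1 and 0.10 at R2, with exact permutation p-values of 1 and 0.8. Without library 1 they were 0.20 and 0.31, above WT without overlap. With each fragment counted once they were -0.33 and -0.25, and against the interactions beyond the window the R1 difference was -0.067, so the direction at the enhancers depends on the measure. Counting once also moves with the number of fragments listed, which was higher in every D3839 library of this capture than in any WT library. With all interactions as the total the 3′ difference kept its direction without overlap at Mpg (-0.39), Rhbdf1 (-0.34) and Snrnp25 (-0.16), while at Il9r it was 0.04. The 5′ share was lower in D3839 without overlap at 6 of 7 viewpoints, by -0.61 at Nprl3 to -0.20 at Il9r, and at Snrnp25 it was -0.15 with overlap (exact permutation p = 0.2). Without D3839 library 1 it was -0.12 at Il9r, -0.22 at R2, -0.25 at Rhbdf1, -0.30 at R1, -0.33 at Mpg and -0.50 at Nprl3, again without overlap, and -0.08 at Snrnp25, with it. With all interactions as the total the 5′ share overlapped at all 7 viewpoints and turned to 0.23 at Il9r, 0.08 at Snrnp25 and 0.02 at Rhbdf1.

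Single bins were tested with edgeR's quasi-likelihood test, fitted for each viewpoint over all 25 kb bins of chromosome 11 with at least 20 interactions in 6 libraries, and called at a Benjamini-Hochberg adjusted p under 0.05. All 72 mid-range bins were tested at 6 viewpoints and 71 at Nprl3. At R1 and R2 no mid-range bin was called in either direction, while 1 and 3 bins were higher and 9 and 5 lower at an unadjusted p under 0.05, and DESeq2 called 0. The common dispersion of the edgeR fit, the spread of libraries beyond counting error, was 0.218 at R1 and 0.258 at R2. At the promoter viewpoints it was 0.014 to 0.067, so a bin at R1 or R2 needed a larger difference to be called. The background on chromosome 11 was 0% higher and 0.125% lower at R1 and 0% higher and 0.0927% lower at R2. At Il9r 2 bins were lower and none higher, against backgrounds of 0.346% lower and 0.346% higher. At Snrnp25 2 bins were lower and none higher, against 0.694% lower and 0.347% higher.

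At Rhbdf1 15 bins were lower and 1 higher, against 6.89% lower and 1.79% higher, and at Mpg 17 were lower and none higher, against 5.21% lower and 0.401% higher. At Nprl3 4 bins were lower and none higher, against 1.03% lower and 0.172% higher. With DESeq2, which sets its own size factors, no mid-range bin was lower at any viewpoint, and 1 was higher at Il9r and 2 at Rhbdf1. Leaving out 1 library moved the lower count over 3 to 19 at Rhbdf1, 0 to 29 at Mpg and 0 to 8 at Nprl3. The median log2 difference of the mid-range bins was -0.43 at Mpg, -0.30 at Rhbdf1 and -0.50 at Nprl3, beside -0.56, -0.50 and -0.50 over all bins tested on chromosome 11. By side, the median was -0.61 in the 3′ bins and -0.20 in the 5′ bins at Mpg, -0.45 and -0.10 at Rhbdf1, and -0.41 and -0.62 at Nprl3. The 3′ bins at Mpg, narrowly, and the 5′ bins at Nprl3 thus fell further than the median of the bins tested. Bins were tested by their summed count, and at both viewpoints each D3839 library had more chromosome 11 interactions than each WT library. The median over all bins tested also moved by -0.41 at Il9r and -0.31 at Snrnp25, and with TMM factors, which remove that shift, no mid-range bin was lower at any viewpoint and 6, 1, 2 and 1 bins were higher at Il9r, Snrnp25, Rhbdf1 and Mpg.

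**Figure D4:**
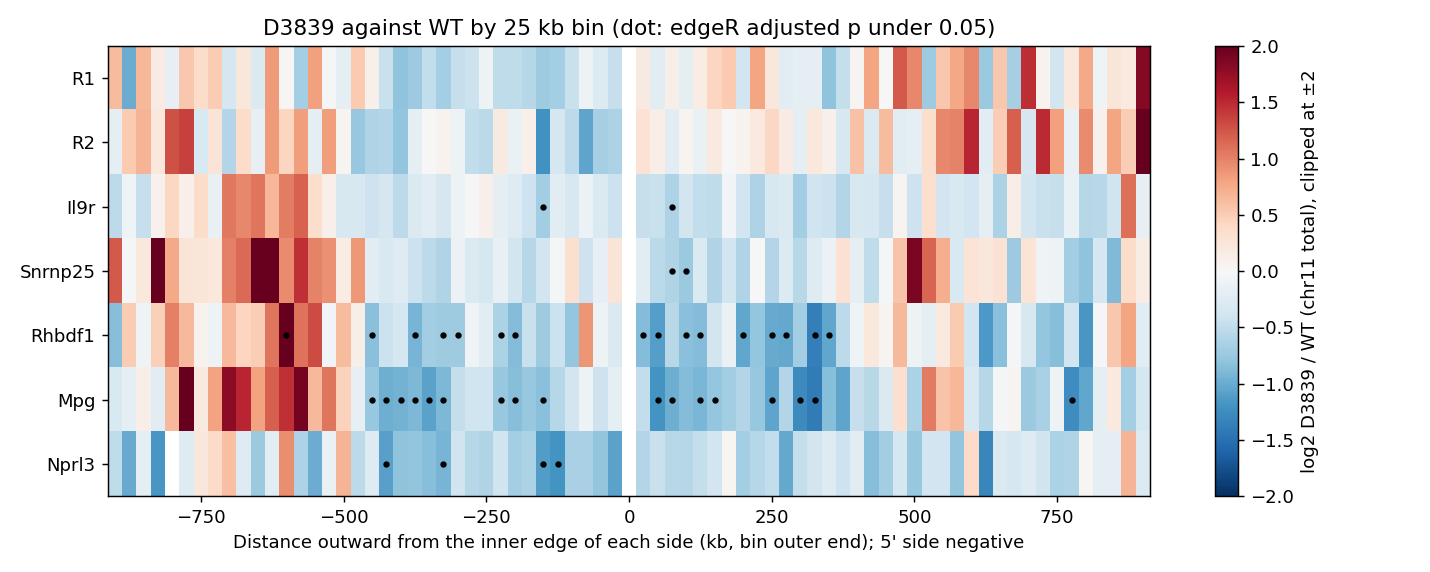
Log2 of D3839 over WT in each 25 kb bin (colour, clipped at 2 either way, chromosome 11 total) against the distance outward from the inner edge of each side (kb, outer end of the bin), 1 line of cells per viewpoint; dots mark bins with an edgeR adjusted p under 0.05. In 5′ bins 1 to 18 all 18 are lower in D3839 at Mpg, 9 of them called, and 17 at Rhbdf1, 6 of them called, and in 5′ bins 19 to 36 of 18 bins 17 are higher in the D3839 fit at Snrnp25, 14 at Rhbdf1 and 14 at Mpg, whereas at Nprl3 5 of 17 are; D3839 library 1 lies below WT in this outer stretch as a whole.

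The bins with the smallest p at Mpg were all on the 3′ side. Bin 3 held 1.03, 1.02 and 0.974% in WT and 0.477, 0.541 and 0.517% in D3839, a log2 difference of -0.97 ± 0.15 (SE, edgeR adjusted p = 0.0015). Bin 13 (32599953-32624952) held 0.569, 0.540 and 0.495% in WT and 0.269, 0.215 and 0.136% in D3839, a difference of -1.39 ± 0.25 (edgeR adjusted p = 0.0055). Bin 2 (32324953-32349952) differed by -1.19 ± 0.22 (edgeR adjusted p = 0.0055). In none of them did the genotypes overlap.

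At Rhbdf1 the leading bins were 3′ bin 13 with -1.36 ± 0.26 (edgeR adjusted p = 0.00037), 3′ bin 10 with -1.0 ± 0.21 (adjusted p = 0.0011) and 3′ bin 2 with -1.10 ± 0.24 (adjusted p = 0.0021). The 1 bin higher in D3839 was 5′ bin 24 (31400031-31425030), which held 0.0348, 0.0307 and 0% in WT and 0.0368, 0.135 and 0.143% in D3839, from 93 interactions over the 6 libraries. Its edgeR log2 difference was 2.08 ± 0.67 (adjusted p = 0.044), and library 1 of D3839 was within 0.002 percentage points of a WT library. At Il9r the called bins were 3′ bin 3 (-0.61 ± 0.15, edgeR adjusted p = 0.011) and 5′ bin 6 (31850031-31875030; -0.69 ± 0.17, adjusted p = 0.015).

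At Snrnp25 the called bins were 3′ bin 4 (32374953-32399952; -0.75 ± 0.17) and 3′ bin 3 (-0.60 ± 0.14), both with an edgeR adjusted p of 0.030. At Nprl3 the leading bins were all on the 5′ side, bin 6 (-1.12 ± 0.26, edgeR adjusted p = 0.023), bin 17 (31575031-31600030; -1.08 ± 0.26, adjusted p = 0.033) and bin 13 (31675031-31700030; -0.94 ± 0.23, adjusted p = 0.033). Bin 3 of the 3′ side, one of the bins of largest local excess, was thus called at Il9r, Snrnp25 and Mpg. With each fragment counted once no bin was called at any viewpoint.

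The outer 5′ stretch, bins 19 to 36 (31.1 Mb to 31550030), separated the D3839 libraries from each other. At Mpg it held 1.14, 1.03 and 1.25% in WT and 0.499, 2.30 and 2.23% in D3839. At Rhbdf1 it held 1.19, 1.07 and 0.936% in WT and 0.583, 1.85 and 1.95% in D3839, and at Snrnp25 1.07, 0.880 and 1.00% in WT and 0.814, 2.14 and 1.92% in D3839. Libraries 2 and 3 were above every WT library and library 1 below every WT library at these 3 viewpoints. The stretch was chosen after its values were seen, so no test is given.

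Library 1 was also below libraries 2 and 3 at the other viewpoints. At Il9r the stretch held 2.08, 1.57 and 2.06% in WT and 1.20, 2.54 and 2.53% in D3839. At R1 it held 0.569, 0.719 and 0.600% in WT and 0.399, 0.789 and 0.847% in D3839, and at R2 0.629, 0.627 and 0.466% in WT and 0.324, 0.738 and 0.775% in D3839. At Nprl3 libraries 2 and 3, with 0.666 and 0.737%, were within the WT range of 0.637 to 0.802%, and library 1 had 0.350%. In all 7 viewpoints library 1 was the lowest of the 6 libraries.

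**Figure D5:**
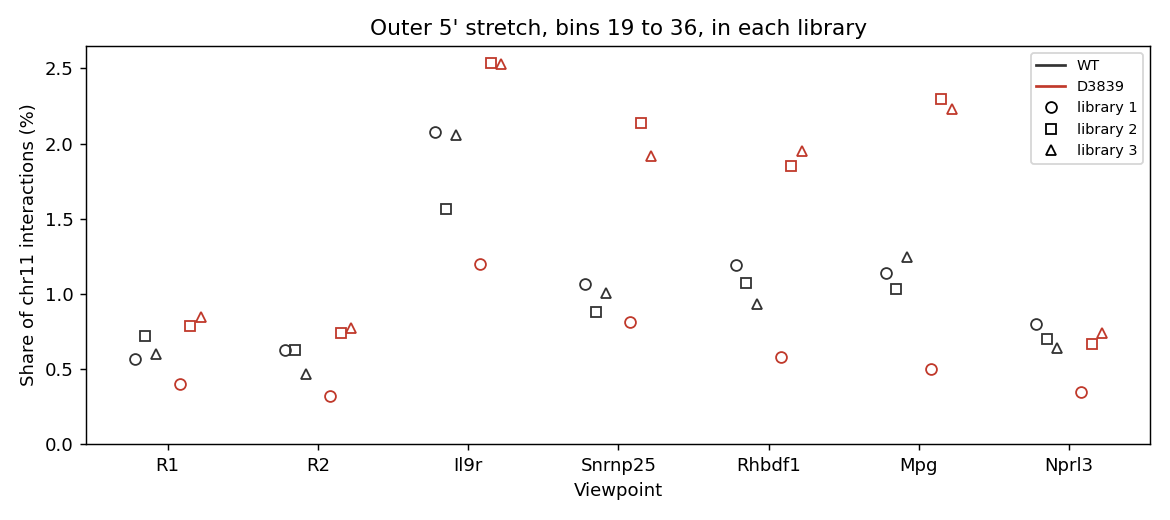
Share of chromosome 11 interactions in the outer 5′ stretch (bins 19 to 36) for each viewpoint and library, in percent; each point is 1 library. At Snrnp25, Rhbdf1 and Mpg, D3839 libraries 2 and 3 lie at 1.85 to 2.30%, above all WT libraries (0.880 to 1.25%), and library 1 lies at 0.499 to 0.814%, below them.

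Taken as a whole, the inner 5′ stretch did not split the libraries in this way. In bins 1 to 18 (31550031-32000030) Mpg had 9.68, 9.94 and 9.08% in WT and 5.85, 6.26 and 6.25% in D3839, and Rhbdf1 had 9.53, 8.93 and 8.07% in WT and 6.22, 6.58 and 6.28% in D3839. Here all D3839 libraries lay together below WT. At Il9r the values were 11.3, 11.3 and 9.70% in WT and 8.65, 9.11 and 9.08% in D3839, and at Nprl3 7.40, 6.96 and 5.40% in WT and 3.71, 4.37 and 4.47% in D3839. Parts of the stretch did split the D3839 libraries, in opposite directions. In bins 1 to 8 these libraries held 1.43, 2.21 and 2.07% at Mpg and 1.43, 2.22 and 2.16% at Rhbdf1. In bins 9 to 12 they held 2.75, 2.45 and 2.53% at Mpg and 3.15, 2.61 and 2.35% at Rhbdf1. Library 1 also had the lowest share beyond the window, at Mpg 22.6% beside 30.03 and 30.33% in libraries 2 and 3 and 34.5, 34.0 and 33.8% in WT, and the part of this in the split of the outer stretch was not tested.

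Contacts per listed fragment fell with distance on both sides. The slope of log2 interactions per listed fragment on log2 distance from the viewpoint, over 36 bins a side, averaged -1.91 on the 3′ side and -1.32 on the 5′ side at Il9r in WT. On the 3′ side it was -1.97 at Snrnp25, -1.87 at Rhbdf1 and -1.73 at Mpg in WT. The 5′ slope was the shallower in 6 of 6 libraries at Il9r, Snrnp25, Rhbdf1 and Mpg, with mean differences of 0.64, 0.51, 0.45 and 0.35 (exact sign-flip permutation p = 0.031 each, adjusted 0.0547 over 7 viewpoints). At Nprl3 the slopes of the sides differed by -0.03, the 5′ slope being the steeper in 3 of 6 libraries. Because the 5′ maximum and the 3′ peak interrupt the decline, a slope summarises these profiles only roughly.

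All 14 mean slopes, 1 for each viewpoint and side, were shallower in D3839 than in WT, by 0.08 to 0.44. The direction turned on the 3′ side at Snrnp25 without WT library 1 (-0.03) or D3839 library 3 (-0.04) and at Nprl3 without WT library 1 (-0.03). Without D3839 library 1 the differences of the 5′ slopes ran from 0.35 at Il9r to 0.71 at Mpg, and the genotypes overlapped at none of the 7 viewpoints. Those of the 3′ slopes were 0.12 at Nprl3 and 0.32 at Snrnp25, with overlap. They were 0.26 at Il9r, 0.28 at R1, 0.43 at Mpg, 0.44 at R2 and 0.45 at Rhbdf1, without overlap. With all libraries the genotypes at R2 did not overlap on either side (0.44 on the 5′ side and 0.40 on the 3′ side, exact permutation p = 0.1 each, adjusted 0.47), and at the other viewpoints they overlapped. On the 5′ side at Mpg the slopes were -1.50 ± 0.11 in WT and -1.06 ± 0.47 in D3839 (SD, n = 3), with D3839 values from -1.61 to -0.78. The spread of the D3839 libraries exceeded the difference there, which was 0.30 without D3839 library 3 and 0.71 without library 1.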

How the data were processed

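The deposited tables hold counts: per the file headers, the authors' analysis gives reporters, the interactions of each DpnII fragment with each viewpoint. The submitters' processing notes name Trim Galore, Bowtie and mm9. How duplicate reads were treated is not given in the sources used here, and repeated reads of 1 ligation product would raise counts. Fragments were assigned by midpoint, summed over sides and 25 kb bins, and set against the viewpoint's chromosome 11 total. Groups came from the labels. Shares were compared over libraries with exact permutation tests, and bins with edgeR 4.0.16 in R 4.3.3 (filter of 20 counts, library size the chromosome 11 total), tested on simulated data, with DESeq2 1.42.0 as an alternative. Named bins are the edge bins, up to 3 called bins each way per viewpoint, the 3 of largest local excess per side, and per capture the 3 fragments with the most interactions. The members and lists were chosen with earlier results of these data known. Alternatives were other totals, edges, bin sizes and filters, each fragment counted once, a replicate block and the omission of single libraries. Counting each fragment once also moves with the number of fragments a library lists. Comparisons of the genotypes within a capture share their WT libraries across viewpoints.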

Additional observations from a re-analysis of the deposited data

How the results depend on the processing

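The design of 3 WT against 3 D3839 libraries allows no exact p below 0.1, so non-overlap of the libraries served as the threshold, and the library depth limits single bins more than sides. With all interactions as the total the mid-range difference of D3839 and WT turned to 0.035 at R2 and 0.15 at Il9r and lost non-overlap at Snrnp25 (-0.029), Rhbdf1 (-0.14), Mpg (-0.19) and Nprl3 (-0.090). With that total the 5′ share turned to 0.23 at Il9r, 0.079 at Snrnp25 and 0.017 at Rhbdf1, and the 3′ share to 0.040 at Il9r. Against the interactions elsewhere on chromosome 11 (chosen after seeing the data) the mid-range value was 0.072 at Il9r, -0.054 at Snrnp25, -0.093 at Rhbdf1 and -0.13 at Nprl3, with overlap, and -0.29 at R1 and -0.20 at R2, without it. That reference turned the 5′ share to 0.16, 0.054 and 0.060 at Il9r, Snrnp25 and Rhbdf1, and the 3′ share to -0.067 at R1. Counted once per fragment, the mid-range share no longer overlapped at R1 (-0.47) and R2 (-0.41), the 3′ share turned to -0.33 and -0.25 there, the 5′ to 3′ ratio within libraries at R2 was 0.18 (exact permutation p = 0.0625) and its genotype difference at Nprl3 reached -0.18 without overlap. At 250 to 850 kb the 3′ share at R1 was -0.028, the ratio within libraries at Il9r was 0.16 (exact permutation p = 0.0625), and its genotype difference overlapped at R1 (-0.38) and no longer at Snrnp25 (0.19) and Rhbdf1 (0.33). Without the innermost 4 bins that difference was -0.40 at R1, with overlap, and 0.28 at Mpg, without. Per listed fragment the ratio within libraries was 0.16 at Il9r, 0.20 at Snrnp25 and 0.26 at Rhbdf1 (exact permutation p = 0.0938, 0.0625 and 0.0625). With D3839 libraries 2 and 3 summed as 1 (chosen after seeing the data) the 3′ share was -0.10 at R1 and -0.011 at R2.

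Leaving out each library in turn moved the mid-range difference from -0.30 to -0.093 at R1 and from -0.24 to -0.0013 at R2, the 3′ share from -0.11 to 0.20 at R1 and from -0.011 to 0.31 at R2, and the genotype difference of the 5′ to 3′ ratio from 0.11 to 0.34 at Il9r, 0.18 to 0.33 at Snrnp25, 0.29 to 0.50 at Rhbdf1 and 0.26 to 0.47 at Mpg. The ratio within libraries ranged over 0.47 to 0.60 at R1, 0.47 to 0.62 at R2, 0.21 to 0.30 at Il9r, 0.25 to 0.34 at Snrnp25, 0.30 to 0.42 at Rhbdf1, 0.42 to 0.54 at Mpg and 0.35 to 0.42 at Nprl3, and the enhancer against promoter difference over -0.81 to -0.73, where 5 libraries cannot give an exact p below 0.0625. The 3′ slope difference ranged over -0.041 to 0.32 at Snrnp25 and -0.030 to 0.19 at Nprl3. Called bins lower in D3839 ranged over 0 to 1 at R2, 0 to 13 at Il9r, 0 to 7 at Snrnp25, 3 to 19 at Rhbdf1, 0 to 29 at Mpg and 0 to 8 at Nprl3, and higher ones over 0 to 6 at Il9r, 0 to 3 at Snrnp25, 0 to 5 at Rhbdf1 and 0 to 10 at Mpg. The highest counts at Il9r, Snrnp25, Rhbdf1 and Mpg came without D3839 library 1.

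Lower bins numbered 2, 2, 15, 17 and 4 at Il9r, Snrnp25, Rhbdf1, Mpg and Nprl3. In that order they were 0 at each with TMM factors, with DESeq2 or with each fragment counted once, and 0, 0, 1, 0 and 0 with all interactions as the library size. DESeq2 used its own size factors in place of the chromosome 11 total, so it changed the normalization as well as the tool. They were 5 at Rhbdf1 and 11 at Mpg with no filter, 6, 27 and 12 at Il9r, Mpg and Nprl3 with at least 60 counts, and in 50 kb bins 0, 1, 8 and 2 at Il9r, Snrnp25, Rhbdf1 and Nprl3. With D3839 libraries 2 and 3 summed as 1 they were 1, 0, 4 and 0 at Il9r, Snrnp25, Rhbdf1 and Nprl3. Higher bins were 6, 1, 2 and 1 at Il9r, Snrnp25, Rhbdf1 and Mpg with TMM factors, 1 at Il9r and 2 at Rhbdf1 with DESeq2, 1 at Mpg with at least 60 counts and 2 in 50 kb bins. The single higher bin of Rhbdf1 was lost (0) with all interactions as the library size, no filter, each fragment counted once, the replicate block and libraries 2 and 3 summed as 1. Replicate numbers did not pair the samples, since the same-numbered deviations correlated at 0.23, 0.10 and 0.05 in the R1 capture and -0.06, -0.12 and 0.09 in the promoter capture. With the replicate block the lower bins were 0 at Snrnp25 and Nprl3, 1 bin was higher at Snrnp25, and the genotype difference of the ratio at Mpg (0.33) had 1 sign in all 3 pairs. The cause of these changes was not tested.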

Other observations

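Longer fragments gave more interactions, but fewer per base. The shortest fragments (16 to 138 bases) had a mean of 20.2 interactions over the 12 libraries and 269 per kb, and the longest (605 to 3399 bases) had 52.6 and 50.2 per kb. Across the 3996 fragments length and interactions had a Spearman correlation of 0.33, a description of fragments that share libraries. The median length was 289 bases on the 5′ side and 330 on the 3′ side.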
